A study of Solanum lycopersicum with 18 samples.

Results

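The results concern 6 tomato genes that encode type 2C protein phosphatases, out of 23808 genes in the deposited expression table. They were chosen by name, with their levels at the 3 hours of the study already known, as 2 genes with a higher level and 4 genes with a lower level at 2 and 8 h of NaCl than at 0 h. The differences between hours are therefore given for these 6 genes as a description, with no test. RNA of NaCl-treated tomato leaves was sequenced from 2 materials, which the labels name Micro-TOM-EX and Micro-TOM. The 6 groups were Micro-TOM-EX at 0, 2 and 8 h of NaCl and Micro-TOM at 0, 2 and 8 h of NaCl, with 3 libraries each and 18 in all. Both materials were raised in potting soil under greenhouse conditions with 16 h of light and were treated with NaCl. Micro-TOM, a dwarf cultivar of tomato, serves as a model plant. The sources used here do not state the age of the plants, the salt dose or what distinguishes Micro-TOM-EX. Leaves kept without salt for 2 or 8 h were not analysed here, so salt and the time of day cannot be told apart in any difference between hours. Whether the 3 libraries of a group stem from different plants is not stated, and the p-values therefore reflect only the spread between these samples, which may be technical.

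Abscisic acid is the plant hormone of water deficit and salt stress, and type 2C protein phosphatases of the group called clade A hold its signalling pathway off. Without the hormone these enzymes keep SnRK2 protein kinases dephosphorylated and inactive. When abscisic acid binds its PYR and PYL receptors, the receptors dock onto the phosphatases and block them, and the freed kinases phosphorylate bZIP transcription factors in the nucleus and the SLAC1 anion channel in guard cells, which closes stomata in leaves. In Arabidopsis, genes of clade A phosphatases such as ABI1, ABI2 and AHG3 are themselves induced by abscisic acid. Other type 2C phosphatases work outside this pathway.

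The annotation placed only some of the 6 genes in the abscisic acid pathway. The deposited table named 90 genes as type 2C phosphatases, and 13 of them carried K14497, the KEGG orthology group of the phosphatases of abscisic acid signalling. LOC101258071, LOC101261835 and LOC101265524 were among these 13. LOC101253040, LOC101258862 and LOC101260150 carried other orthology groups. LOC101258862 was the 1 gene of the 6 with an abscisic acid term in its gene ontology annotation. K14497 also stood on 46 genes with no phosphatase name, 42 of them named as resistance proteins, so the orthology group was used only together with a phosphatase name. The 6 genes are therefore called by what all of them are, type 2C phosphatases.

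Depth was even across the libraries. FPKM states a level per length of transcript and per depth of library, and the size of its steps at low values gave 18.47 to 20.00 M fragments per library. Correlations of log2(FPKM + 1) were 0.978 to 0.995 within a group, 0.967 to 0.989 between the materials at 1 hour and 0.795 to 0.894 between hours. Of 33 genes named as small subunits of Rubisco or chlorophyll-binding proteins, which mark leaf mesophyll, 32 reached 1 FPKM in every group. The sum of these 33 genes ranged from 44479 to 47315 FPKM in Micro-TOM-EX and from 30428 to 44985 FPKM in Micro-TOM at 0 h. It was 12225 to 33211 FPKM in Micro-TOM-EX and 10859 to 17819 FPKM in Micro-TOM at 2 h, and 7159 to 17618 FPKM in Micro-TOM-EX and 6917 to 19358 FPKM in Micro-TOM at 8 h. The leaf label thus stood at every hour, and the sum was lower at 2 and 8 h than at 0 h in both materials. In RNA of whole leaves, fewer cells of a type and less RNA per cell cannot be told apart. A list of 8 root genes summed to 48.7 to 78.3 FPKM in Micro-TOM-EX and 32.7 to 58.7 FPKM in Micro-TOM at 0 h, to 11.8 to 16.4 FPKM in Micro-TOM-EX and 10.5 to 16.8 FPKM in Micro-TOM at 2 h, and to 5.78 to 14.4 FPKM in Micro-TOM-EX and 6.26 to 11.3 FPKM in Micro-TOM at 8 h. Its sum was thus also lower at the later hours. Of this list, 2 genes reached a mean of 1 FPKM at 0 h in each material, and 1 to 3 did in the groups of the later hours. Another gene of the list, Casparian strip membrane protein 1 (LOC101244834), of the root endodermis, was listed at 0 in every library of 5 of the 6 groups. The part of these lists in the differences between hours below was not tested.

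LOC101258071 had the largest differences between 0 h and the later hours of the tested type 2C phosphatases on the log2(FPKM + 1) scale. The gene is annotated only as a protein phosphatase 2C, with 1 transcript of 1641 bases, on the minus strand of chromosome 6 at 35603421 to 35605482. Positions here are as deposited, on a genome build not given in the sources used here. At 0 h, its level was 0.77, 2.16 and 0.87 FPKM in Micro-TOM-EX, against 0.33, 0.91 and 0.53 FPKM in Micro-TOM. After 2 h of NaCl it was 336, 325 and 253 FPKM in Micro-TOM-EX and 488, 491 and 536 FPKM in Micro-TOM. By 8 h it was 88.5, 147 and 62.55 FPKM in Micro-TOM-EX and 93.8, 86.5 and 83.7 FPKM in Micro-TOM. Every library of 2 h lay above every library of 8 h of the same material, and every library of 8 h lay above every library of 0 h. At 0 h the gene was close to silent, with 21.9 to 60.0 fragments behind the value in a Micro-TOM-EX library and 9.09 to 26.0 in a Micro-TOM library. The mean at 2 h was 241 times the mean at 0 h in Micro-TOM-EX and 856 times in Micro-TOM, and these ratios are imprecise because of the few fragments at 0 h. On the log2(FPKM + 1) scale, which damps the change of genes that are low at 0 h, the difference between 2 h and 0 h was 7.12 in Micro-TOM-EX and 8.33 in Micro-TOM. The difference between 8 h and 0 h was 5.43 in Micro-TOM-EX and 5.82 in Micro-TOM, on the same scale. Without replicate 2 of 0 h, the highest library of its group in both materials, the difference between 2 h and 0 h was 7.38 in Micro-TOM-EX and 8.47 in Micro-TOM. The difference between 8 h and 0 h was 5.11 in Micro-TOM-EX when the replicate 2 library of 8 h, the highest of its group, was left out. Each of these 4 differences ranked 1 among the 71 type 2C phosphatase genes that passed a filter of at least 1 FPKM in at least 3 libraries, which all 6 genes passed. On other scales it did not always lead. LOC101253664, named probable protein phosphatase 2C 75, had 76.2 FPKM at 2 h and 0.0233 FPKM at 0 h in Micro-TOM-EX, and 110 FPKM at 2 h and 0.0533 FPKM at 0 h in Micro-TOM, a larger ratio, and PP2C-2, described below, gained more FPKM. At 8 h LOC101253664 had 5.61 FPKM in Micro-TOM-EX, again a larger ratio, and 6.50 FPKM in Micro-TOM, a smaller ratio. These ratios of LOC101253664 are very imprecise, since the SD of its level at 0 h was 0.0404 FPKM in Micro-TOM-EX and 0.0473 FPKM in Micro-TOM. PP2C-2 and LOC101261835 gained more FPKM by 8 h than LOC101258071 in both materials.

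LOC101261835 had a smaller difference from 0 h, of much the same size at both later hours. It is named probable protein phosphatase 2C 50 in the deposited table and carries the symbol ABI2 in the RefSeq table of another assembly. Arabidopsis ABI2 is a clade A phosphatase that restrains the abscisic acid response. The gene has 10 transcripts, the longest of 2652 bases, on the plus strand of chromosome 7 at 51485144 to 51488443. Its level at 0 h was 19.5, 21.6 and 15.6 FPKM in Micro-TOM-EX, against 20.6, 20.0 and 17.8 FPKM in Micro-TOM. It stood at 206, 223 and 226 FPKM in Micro-TOM-EX and 182, 208 and 203 FPKM in Micro-TOM at 2 h. The values at 8 h were 290.2, 263 and 235 FPKM in Micro-TOM-EX and 203, 234 and 247 FPKM in Micro-TOM. Every later library was far above every library of 0 h in both materials, and 8 h and 2 h lay close to each other. The libraries of 8 h and 2 h did not overlap in Micro-TOM-EX and overlapped in Micro-TOM, and which hour was higher depended on the scaling. After rescaling each library by its median ratio to the others, the log2 difference from 0 h was 3.90 at 2 h and 3.76 at 8 h in Micro-TOM-EX, and 3.63 at 2 h and 3.42 at 8 h in Micro-TOM. The authors' deposited table gave a log2 difference of 8 h over 2 h of -0.136 in Micro-TOM-EX (q = 0.480) and -0.183 in Micro-TOM (q = 0.318). The mean at 2 h was 11.5 times that at 0 h in Micro-TOM-EX and 10.2 times in Micro-TOM. By 8 h these ratios to 0 h were 13.9 in Micro-TOM-EX and 11.7 in Micro-TOM. The differences on the log2 scale ranked 4 among the 71 type 2C phosphatases in each of the 4 comparisons of a later hour with 0 h.

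**Figure D1:**
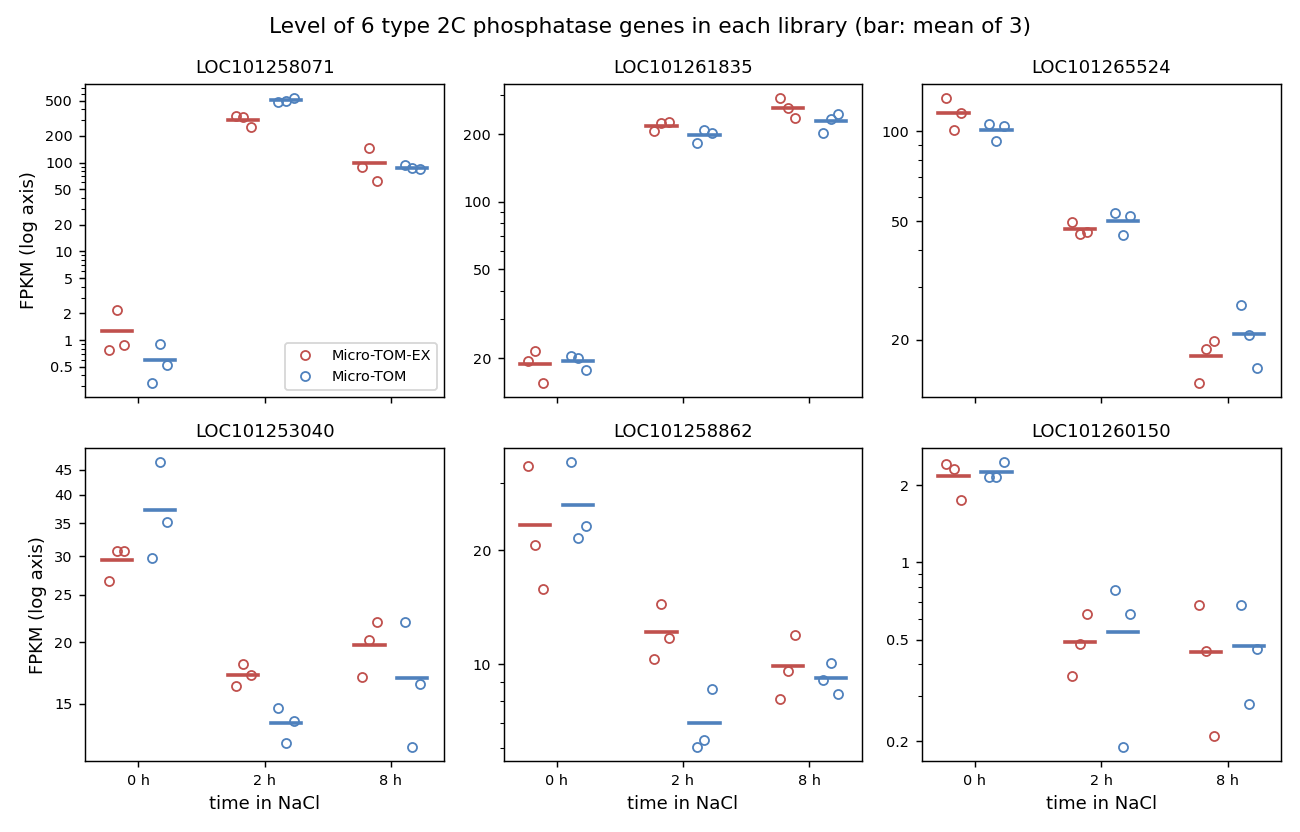
FPKM (log axis, its own range in each panel) of each of the 6 phosphatase genes against hours of NaCl, with Micro-TOM-EX in red on the left and Micro-TOM in blue on the right at each hour. Open circles are the 3 libraries of a group and the bar is their mean. LOC101258071 and LOC101261835 lie higher at 2 and 8 h than at 0 h and the other 4 genes lie lower, in both materials.

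LOC101265524 was the most abundant of the 6 genes at 0 h and was lower at each later hour. It is named probable protein phosphatase 2C 53, has 2 transcripts, the longest of 3089 bases, and lies on the minus strand of chromosome 12 at 65098262 to 65102065. At 0 h, it had 129, 101 and 115 FPKM in Micro-TOM-EX and 105, 92.9 and 104 FPKM in Micro-TOM. At 2 h, it had 49.8, 45.1 and 46.1 FPKM in Micro-TOM-EX and 53.2, 45.0 and 52.2 FPKM in Micro-TOM. At 8 h, it had 14.4, 18.7 and 19.9 FPKM in Micro-TOM-EX and 26.1, 20.7 and 16.1 FPKM in Micro-TOM. The 3 hours did not overlap in either material. The mean at 0 h was 2.45 times that at 2 h and 6.52 times that at 8 h in Micro-TOM-EX. In Micro-TOM it was 2.01 times that at 2 h and 4.81 times that at 8 h. This gene carries K14497 like LOC101258071 and LOC101261835, which had the opposite direction.

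LOC101253040, named probable protein phosphatase 2C 78, has 3 transcripts, the longest of 3113 bases, on the plus strand of chromosome 2 at 53716865 to 53720344. Its libraries of 0 h held 26.7, 30.75 and 30.75 FPKM in Micro-TOM-EX and 29.7, 46.6 and 35.2 FPKM in Micro-TOM. Those of 2 h held 16.3, 18.05 and 17.1 FPKM in Micro-TOM-EX and 14.7, 12.5 and 13.8 FPKM in Micro-TOM. Those of 8 h held 17.01, 20.2 and 22.02 FPKM in Micro-TOM-EX and 22.02, 12.2 and 16.4 FPKM in Micro-TOM. The gene was lower at both later hours than at 0 h with no overlap, and 2 h and 8 h overlapped within each material. The mean at 0 h was 1.71 times that at 2 h in Micro-TOM-EX and 2.72 times in Micro-TOM.

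LOC101258862 is named putative protein phosphatase 2C 53 and has 1 transcript of 1757 bases on the minus strand of chromosome 5 at 62746188 to 62748724. In the libraries of 0 h it had 33.4, 20.6 and 15.8 FPKM in Micro-TOM-EX and 34.1, 21.5 and 23.2 FPKM in Micro-TOM. In those of 2 h it had 10.3, 14.4 and 11.7 FPKM in Micro-TOM-EX, against 6.04, 6.31 and 8.60 FPKM in Micro-TOM. In those of 8 h it had 8.08, 9.62 and 11.9 FPKM in Micro-TOM-EX and 9.09, 10.1 and 8.36 FPKM in Micro-TOM. The libraries of 0 h spread widely within each material, with replicate 1 the highest in both, and still lay above all later ones. The mean at 0 h was 1.92 times that at 2 h in Micro-TOM-EX and 3.76 times in Micro-TOM, and 2.36 times that at 8 h in Micro-TOM-EX and 2.86 times in Micro-TOM.

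LOC101260150 had the lowest level of the 4 genes that were lower at 2 and 8 h. It is named probable protein phosphatase 2C 51, has 5 transcripts, the longest of 2349 bases, and lies on the minus strand of chromosome 6 at 49340979 to 49344558. Levels of 2.42, 2.32 and 1.76 FPKM in Micro-TOM-EX and 2.16, 2.16 and 2.46 FPKM in Micro-TOM were listed at 0 h. Levels of 0.36, 0.48 and 0.63 FPKM in Micro-TOM-EX and 0.78, 0.19 and 0.63 FPKM in Micro-TOM were listed at 2 h. Levels of 0.68, 0.45 and 0.21 FPKM in Micro-TOM-EX and 0.68, 0.28 and 0.46 FPKM in Micro-TOM were listed at 8 h. Both later hours lay below 1 FPKM in every library and overlapped each other. The mean at 0 h was 4.42 times that at 2 h in Micro-TOM-EX and 4.24 times in Micro-TOM, the largest such ratio of these 4 genes, and the log2(FPKM + 1) scale reduced it to a difference of -1.09 in Micro-TOM-EX and -1.11 in Micro-TOM.

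For all 6 genes, the libraries of 2 h and of 8 h did not overlap those of 0 h in either material. This was common in these leaves and nothing is read from it, since the genes were chosen on these differences. Of all 18402 genes tested, 76.4% had no overlap between 2 h and 0 h and 74.7% between 8 h and 0 h in Micro-TOM-EX, and the shares in Micro-TOM were 78.1% at 2 h and 73.4% at 8 h. Rescaling each library by its median ratio to the others raised the median difference between 2 h and 0 h over all genes by 0.39 (log2) in Micro-TOM-EX and 0.31 in Micro-TOM. The 4 genes lower at 2 and 8 h kept negative differences after this rescaling, from -0.32 for LOC101253040 to -0.88 for LOC101260150 at 2 h in Micro-TOM-EX and from -0.65 for LOC101265524 to -1.44 for LOC101258862 at 2 h in Micro-TOM. For LOC101253040 in Micro-TOM-EX the difference at 2 h was -0.74 without the rescaling.

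Within the summed FPKM of the 6 genes, the leading gene differed between hours. The choice of 2 genes higher and 4 lower at the later hours fixed the shift of this sum towards those 2. Of the summed FPKM of all 90 type 2C phosphatase genes, the 6 held 8.47% (Micro-TOM, 0 h) to 15.4% (Micro-TOM, 2 h). PP2C-2, outside the 6, was higher than any of them at 2 h, at 703 FPKM in Micro-TOM-EX and 724 FPKM in Micro-TOM. The 6 genes summed to 190 ± 18.9 FPKM in Micro-TOM-EX and 187 ± 4.91 FPKM in Micro-TOM at 0 h (SD, n = 3 each, as for all ± values below). The sum was 600 ± 39.3 FPKM in Micro-TOM-EX and 774 ± 36.0 FPKM in Micro-TOM at 2 h, and 410 ± 54.2 FPKM in Micro-TOM-EX and 363 ± 8.67 FPKM in Micro-TOM at 8 h. LOC101265524 made up 60.5% ± 3.69 of the sum in Micro-TOM-EX and 54.0% ± 3.26 in Micro-TOM at 0 h. The leading gene at 2 h was LOC101258071, with 50.6% ± 4.47 in Micro-TOM-EX and 65.2% ± 0.767 in Micro-TOM. The leading gene at 8 h was LOC101261835, with 64.5% ± 6.37 in Micro-TOM-EX and 62.6% ± 4.82 in Micro-TOM. LOC101258071 and LOC101261835 together held 10.7% of the sum at 0 h in each material. They held 87.2% in Micro-TOM-EX and 90.8% in Micro-TOM at 2 h, and 88.1% in Micro-TOM-EX and 86.9% in Micro-TOM at 8 h. The other 4 genes summed to 170 ± 19.3, 76.8 ± 1.25 and 47.7 ± 7.02 FPKM at 0, 2 and 8 h in Micro-TOM-EX, and to 167 ± 4.25, 71.3 ± 6.32 and 47.5 ± 9.07 FPKM in Micro-TOM.

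**Figure D2:**
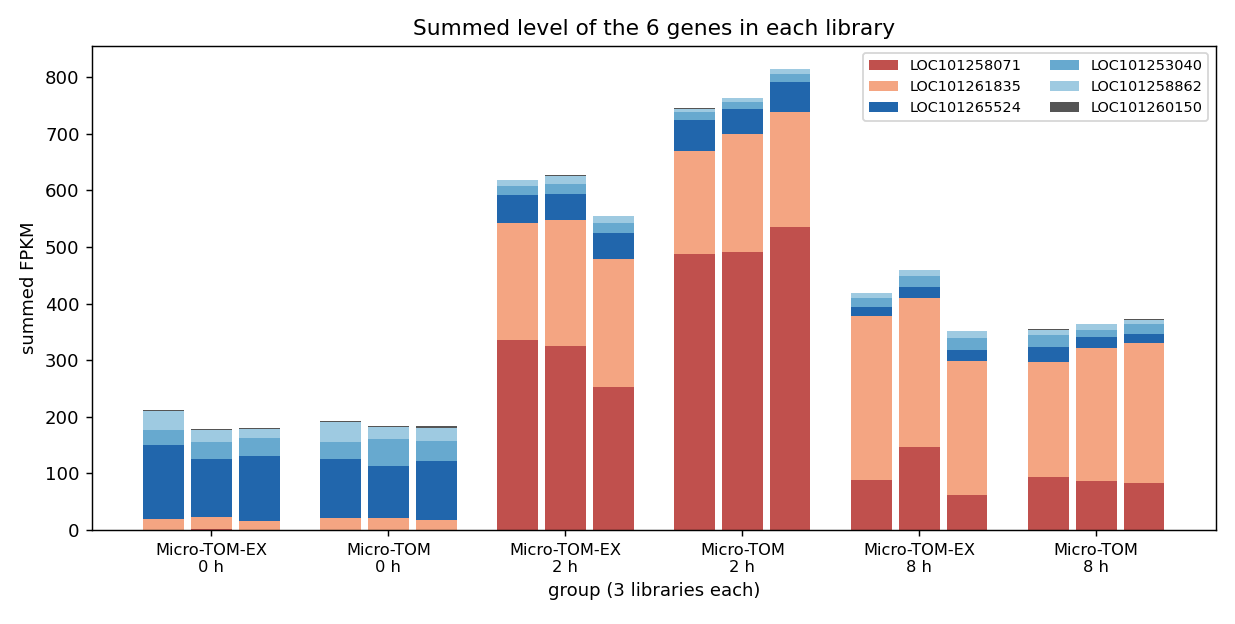
Summed FPKM of the 6 phosphatase genes in each of the 18 libraries, stacked by gene, with the 3 libraries of a group side by side and Micro-TOM-EX left of Micro-TOM at each hour. LOC101265524 (dark blue) fills most of the bars at 0 h, LOC101258071 (red) is the largest part at 2 h and LOC101261835 (orange) at 8 h.

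The order of the levels, which FPKM allows because it is per length of transcript, was the same in both materials at 0 and 2 h. At 0 h it ran from LOC101265524 through LOC101253040, LOC101258862, LOC101261835 and LOC101260150 down to LOC101258071. Neighbours whose libraries overlapped at 0 h were LOC101253040 and LOC101258862 in both materials, and LOC101258862 and LOC101261835 as well as LOC101260150 and LOC101258071 in Micro-TOM-EX. At 2 h the order was LOC101258071, LOC101261835, LOC101265524, LOC101253040, LOC101258862 and LOC101260150, and no neighbours overlapped in either material. At 8 h LOC101261835 led, ahead of LOC101258071, and LOC101253040 and LOC101265524 overlapped in both materials. The gene with the lowest mean at 0 h thus had the highest at 2 h.

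Whether the materials differed is a question that the choice of the 6 genes did not use, and it was tested with limma over all 18402 genes. None of the 6 genes passed an adjusted p of 0.05 in the comparison of Micro-TOM-EX with Micro-TOM at any hour. At 0 h, 4.01% of all genes passed and 0 of the 6, with 0 of them at an unadjusted p under 0.05 and 0 in the authors' deposited table at a q under 0.05. At 8 h, 1.67% of all genes passed and 0 of the 6, again with 0 at an unadjusted p under 0.05 and 0 in the authors' deposited table. The differences at these hours ranged from -0.31 for LOC101253040 to 0.48 for LOC101258071 at 0 h and from -0.22 for LOC101265524 to 0.24 for LOC101253040 at 8 h, on the log2(FPKM + 1) scale. All of their 95% intervals held 0. The widest, those of LOC101258071, ran from -0.07 to 1.02 at 0 h and from -0.46 to 0.63 at 8 h, so that differences of that size could not be detected. At the low level of this gene at 0 h, the added 1 shrinks the difference. Its mean in Micro-TOM-EX was 2.15 times that in Micro-TOM, and the authors' log2 difference was 0.770 (q = 0.660 in their deposited table).

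At 2 h, 13.7% of all genes passed and 0 of the 6, but LOC101258862 and LOC101258071 came near the threshold, and both had an unadjusted p under 0.05, as did 27.8% of all genes. The libraries of the materials did not overlap at 2 h for 3 of the 6 genes, these 2 and LOC101253040, against 32.8% of all genes. LOC101258862 averaged 12.2 ± 2.05 FPKM in Micro-TOM-EX and 6.98 ± 1.41 FPKM in Micro-TOM, a log2 difference of 0.72 (SE 0.235, 95% interval 0.22 to 1.22, limma adjusted p = 0.0525). Every Micro-TOM-EX library was above every Micro-TOM library for this gene. LOC101258071 averaged 305 ± 44.9 FPKM in Micro-TOM-EX and 505 ± 26.9 FPKM in Micro-TOM, a log2 difference of -0.74 (SE 0.257, 95% interval -1.28 to -0.19, limma adjusted p = 0.0702). Here every Micro-TOM-EX library was below every Micro-TOM library. LOC101253040 averaged 17.2 ± 0.880 FPKM in Micro-TOM-EX and 13.7 ± 1.10 FPKM in Micro-TOM, and its difference of 0.31 did not pass (SE 0.180, 95% interval -0.07 to 0.69, limma adjusted p = 0.285). The authors' deposited table gave a log2 difference of Micro-TOM-EX over Micro-TOM of 0.811 for LOC101258862 (q = 0.00384) and -0.695 for LOC101258071 (q = 0.000105), both under 0.05, and a q of 0.148 for LOC101253040. The adjusted p of limma over the alternatives, the authors' q included, ran from 0.00384 to 0.192 for LOC101258862 and from 0.000105 to 0.242 for LOC101258071. Leaving out replicate 1 of Micro-TOM-EX at 2 h, or replicate 3 of Micro-TOM at 2 h, brought LOC101258862 under the threshold, with limma adjusted p = 0.0455 and 0.0490.

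Marker genes moved beside these differences at 2 h. The 13 genes of a guard cell list, of which 5 reached 1 FPKM at 2 h in each material, summed to 28.8 to 32.75 FPKM in Micro-TOM-EX and 38.4 to 41.2 FPKM in Micro-TOM. A KAT1-like potassium channel gene (LOC104646280) of that list was listed at 0 in all 6 of these libraries. At 0 h the guard cell sums did not overlap either and lay the other way. They were 69.7 to 76.8 FPKM in Micro-TOM-EX and 59 to 68 FPKM in Micro-TOM. At 8 h they overlapped, at 42.65 to 52.6 FPKM in Micro-TOM-EX and 46.9 to 60.8 FPKM in Micro-TOM. A list of 21 flower genes also did not overlap at 2 h, with sums of 961 to 1120 FPKM in Micro-TOM-EX and 1123 to 1294 FPKM in Micro-TOM. In each material, 13 of its genes reached 1 FPKM. The anther-specific LAT52 of this list reached at most 0.14 FPKM in these libraries. A pollen-specific extensin-like gene (LOC101246675) of the list was at 0 in all of them. The phloem list of 16 genes overlapped, at 144 to 166 FPKM in Micro-TOM-EX and 139 to 158 FPKM in Micro-TOM, as did the root and leaf mesophyll lists given above. The part of the guard cell and flower differences in the values of LOC101258071 and LOC101258862 was not tested.

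The difference between 2 h and 0 h was also compared between the materials, as the change in Micro-TOM-EX minus the change in Micro-TOM. In this comparison 6.49% of all genes passed the limma test and 0 of the 6, with 3 of the 6 at an unadjusted p under 0.05, as were 19.8% of all genes. LOC101258071 had a log2 difference of -1.21 between the changes in Micro-TOM-EX and in Micro-TOM (SE 0.364, 95% interval -1.98 to -0.44, limma adjusted p = 0.0603, range 0.0297 to 0.157 over the alternatives). Its near-silent level at 0 h enters this value along with the level at 2 h. LOC101258862 had a difference of 0.93 (SE 0.332, 95% interval 0.22 to 1.63, limma adjusted p = 0.121, range 0.0252 to 0.268). That smallest value arose without replicate 1 of Micro-TOM-EX at 0 h, the highest library of the gene in that material. LOC101253040 had a difference of 0.62 (SE 0.254, 95% interval 0.08 to 1.16, limma adjusted p = 0.184). At 8 h the difference between the materials in the change passed for 1.35% of all genes and for 0 of the 6, with 1 of the 6, against 11.9% of all genes, at an unadjusted p under 0.05. This was LOC101253040, with an unadjusted p of 0.0463 and a limma adjusted p of 0.409.

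For LOC101261835, LOC101265524 and LOC101260150 the libraries of the materials overlapped at every hour. For LOC101261835 the log2 difference of Micro-TOM-EX from Micro-TOM was -0.05 at 0 h, 0.14 at 2 h (95% interval -0.12 to 0.40) and 0.20 at 8 h (95% interval -0.06 to 0.46). For LOC101265524 it was 0.18 at 0 h, -0.09 at 2 h (95% interval -0.42 to 0.24) and -0.22 at 8 h (95% interval -0.55 to 0.10). For LOC101260150 it was -0.05 at 0 h, -0.02 at 2 h and -0.03 at 8 h, with intervals within -0.40 and 0.33. For LOC101261835 and LOC101265524 these intervals leave out a 2-fold difference between the materials in either direction. For LOC101260150 they do not at 2 and 8 h, since at levels below 1 FPKM the added 1 shrinks such a difference to within the interval.

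**Figure D3:**
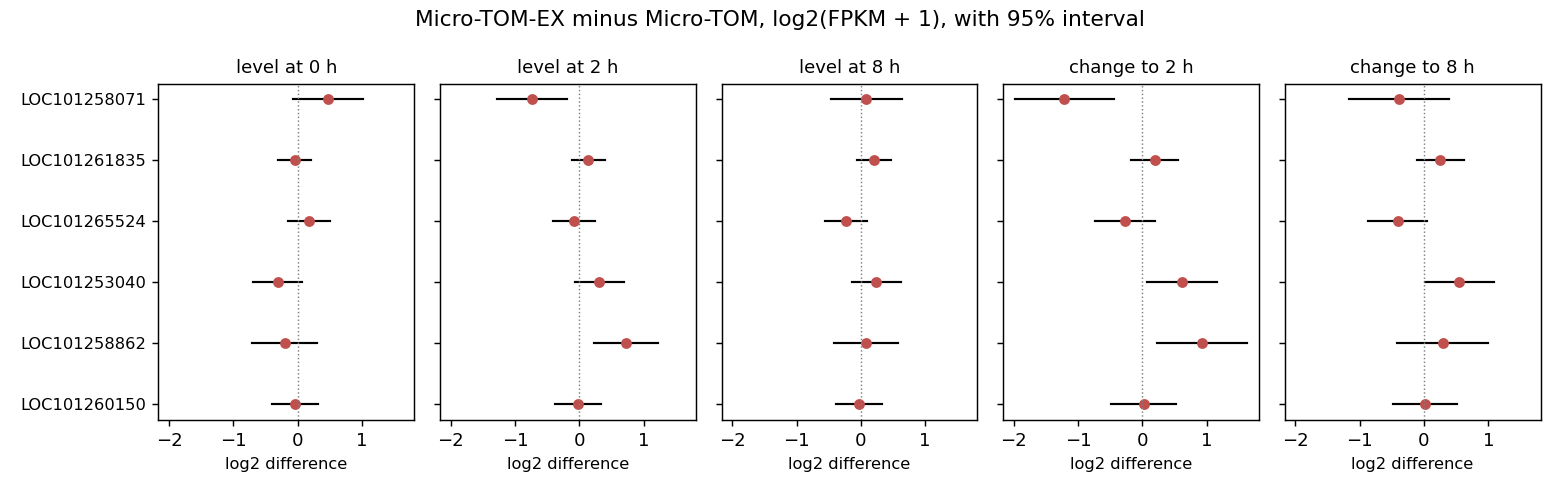
Log2 differences between Micro-TOM-EX and Micro-TOM of the 6 phosphatase genes (points) with 95% intervals (lines), in 5 panels for the level at 0, 2 and 8 h and for the change to 2 h and to 8 h. Values above 0 mean higher in Micro-TOM-EX, and the intervals of LOC101258071 and LOC101258862 at 2 h leave out 0 although their adjusted p-values did not pass.

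The phosphatases with clade A names outside the 6 genes rose for the most part at both later hours. By the numbers in their names, LOC101265524, LOC101253040, LOC101258862 and LOC101260150 also have clade A names, and they were lower at both hours. LOC101261835 has such a name too and was higher. These chosen genes are not in the counts below. A list of 15 other genes with the names or numbers of clade A phosphatases was counted, of which 12 were tested, and in the comparison of 2 h with 0 h 10 rose and 1 fell in Micro-TOM-EX while 9 rose and 1 fell in Micro-TOM. Of all genes, 26.7% rose and 49.2% fell in Micro-TOM-EX and 27.5% rose and 47.5% fell in Micro-TOM at 2 h. The median log2 difference of the list was 1.62 in Micro-TOM-EX and 1.85 in Micro-TOM, against -0.37 and -0.31 for all genes. At 8 h, 9 rose and 1 fell in Micro-TOM-EX and 9 rose and 2 fell in Micro-TOM, against 35.5% of all genes up and 35.8% down in Micro-TOM-EX and 37% up and 33.6% down in Micro-TOM. PP2C-2, named as a homolog of AHG3, had the highest level at 2 h of the list's genes named here, 18.9 ± 6.41, 703 ± 88.7 and 449 ± 65.3 FPKM at 0, 2 and 8 h in Micro-TOM-EX and 17.7 ± 5.54, 724 ± 37.6 and 407 ± 52.7 FPKM in Micro-TOM. PP2C-1, named as a homolog of ABI2, had 67.1 ± 0.429, 259 ± 11.4 and 254 ± 12.3 FPKM in Micro-TOM-EX and 53.4 ± 4.52, 271 ± 8.44 and 259 ± 20.9 FPKM in Micro-TOM. LOC101249794, named probable protein phosphatase 2C 51, had 46.7 ± 3.95, 243 ± 14.2 and 477 ± 41.5 FPKM in Micro-TOM-EX and 47.6 ± 3.88, 327 ± 12.8 and 484 ± 79.3 FPKM in Micro-TOM. All 3 rose at both hours in both materials (limma adjusted p of at most 1.61e-10). LOC101249794 was lower in Micro-TOM-EX than in Micro-TOM at 2 h, by -0.43 (SE 0.122, limma adjusted p = 0.0285). PP2C-1 and PP2C-2 did not pass in this comparison (limma adjusted p = 0.703 and 0.918). Of the 12 tested genes of the list, 2 were lower and 0 higher in Micro-TOM-EX at 2 h, where 13.7% of all genes passed.

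Set beside the genes that share its orthology group, LOC101265524 went the other way. Of the 10 other phosphatase genes with K14497, all of which have clade A names, 8 were tested. In each of the 4 comparisons of a later hour with 0 h, 7 of the 8 rose, and the remaining one, LOC101268450, named probable protein phosphatase 2C 75, did not pass. Of all genes, 26.7% to 37% rose in these 4 comparisons. LOC101265524 was lower in all 4, the direction for which it was chosen, so the contrast is a description and not a test. The 3 genes of the 6 with K14497 made up 30.3% ± 3.21 of the summed FPKM of all 13 such phosphatases in Micro-TOM-EX and 27.7% ± 0.184 in Micro-TOM at 0 h. Their share was 21.7% ± 1.59 in Micro-TOM-EX and 25.4% ± 0.629 in Micro-TOM at 2 h, and 17.8% ± 1.64 in Micro-TOM-EX and 16.4% ± 0.712 in Micro-TOM at 8 h. The sum of the 13 was 448 ± 19.0, 2625 ± 171 and 2124 ± 145 FPKM at 0, 2 and 8 h in Micro-TOM-EX and 437 ± 23.3, 2960 ± 65.0 and 2053 ± 150 FPKM in Micro-TOM.

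The type 2C phosphatases outside clade A names moved in both directions. Of 69 such genes 53 were tested, and at 2 h 18 rose and 25 fell in Micro-TOM-EX while 18 rose and 23 fell in Micro-TOM. This split depended on the scaling at 2 h, since 26 rose and 15 fell in Micro-TOM-EX and 22 rose and 14 fell in Micro-TOM after rescaling by median ratios. At 8 h, 21 rose and 21 fell in Micro-TOM-EX and 18 rose and 19 fell in Micro-TOM. Of all genes at 2 h, 26.7% rose and 49.2% fell in Micro-TOM-EX and 27.5% rose and 47.5% fell in Micro-TOM, without rescaling. At 8 h the shares were 35.5% up and 35.8% down in Micro-TOM-EX and 37% up and 33.6% down in Micro-TOM. LOC101265959, named probable protein phosphatase 2C 34, had 39.0 ± 12.4, 0.503 ± 0.182 and 0.127 ± 0.0777 FPKM at 0, 2 and 8 h in Micro-TOM-EX and 37.05 ± 4.62, 0.280 ± 0.106 and 0.147 ± 0.0924 FPKM in Micro-TOM. LOC101264465, named probable protein phosphatase 2C 5, had 92.8 ± 11.9, 11.1 ± 1.45 and 27.0 ± 2.47 FPKM in Micro-TOM-EX and 116 ± 7.71, 10.8 ± 1.0005 and 29.7 ± 3.79 FPKM in Micro-TOM. LOC101262828, named probable protein phosphatase 2C 52, had 8.53 ± 1.80, 76.6 ± 14.7 and 128 ± 20.9 FPKM in Micro-TOM-EX and 7.99 ± 0.298, 44.5 ± 0.222 and 110 ± 11.01 FPKM in Micro-TOM. At 2 h it was higher in Micro-TOM-EX than in Micro-TOM, by 0.75 (SE 0.153, limma adjusted p = 0.004). Of the 53 tested genes, 7 were higher and 4 lower in this comparison, where 13.7% of all genes passed.

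**Figure D4:**
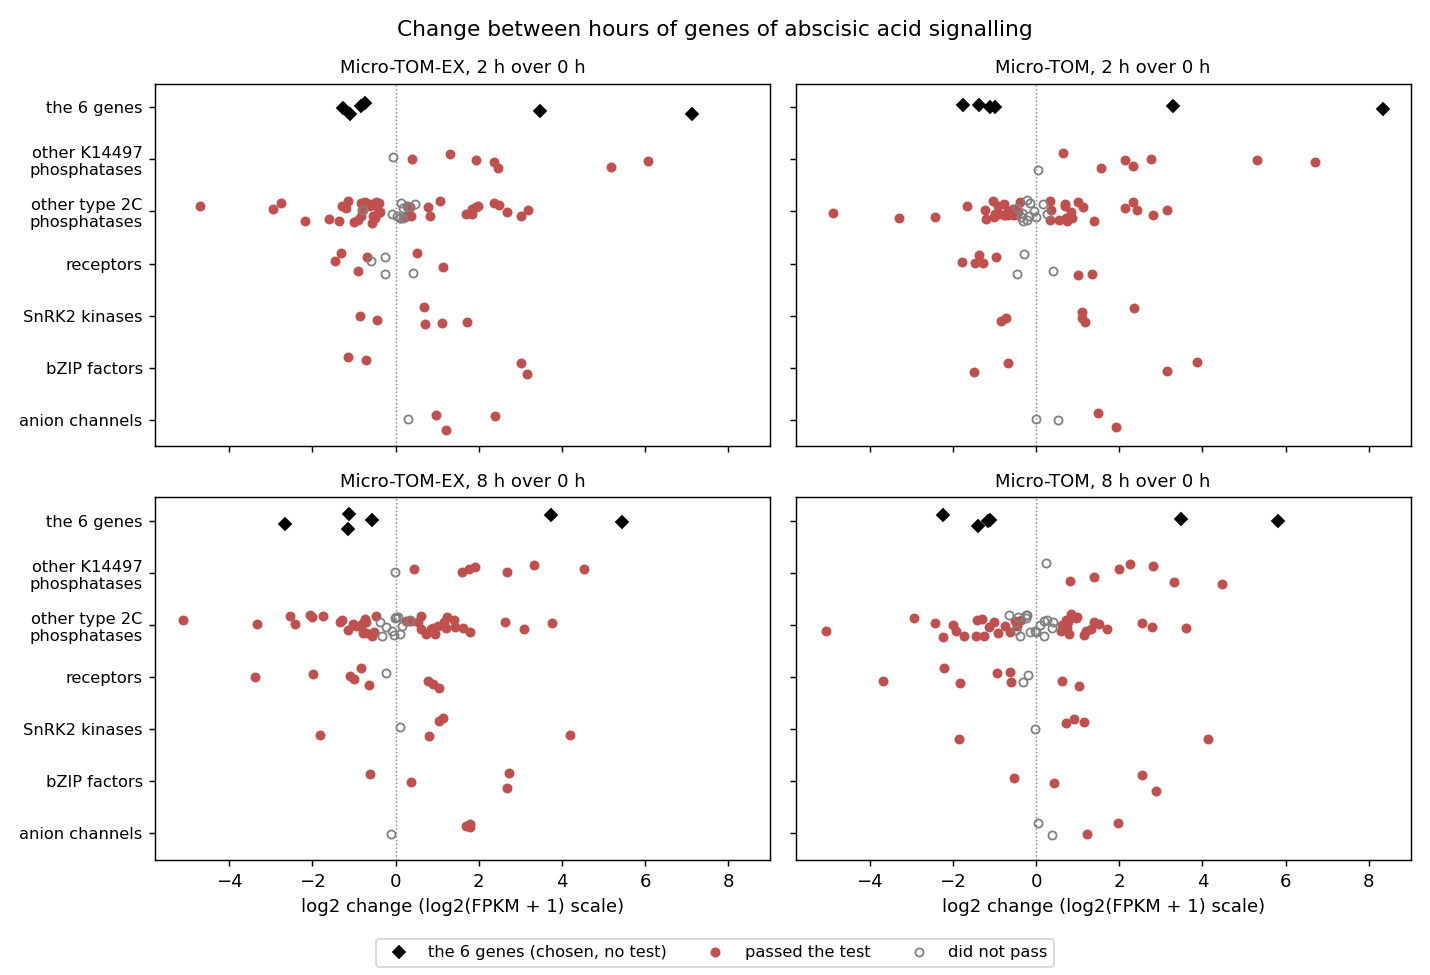
Log2 differences between a later hour and 0 h for the 6 phosphatase genes and for the genes of 6 lists, by material and hour. The scale is log2(FPKM + 1), and the lists are those of abscisic acid signalling and that of the other type 2C phosphatases. Each point is a gene, black diamonds are the 6 chosen genes (not tested), red points passed the limma test and open grey points did not. The other K14497 phosphatases lie to the right of 0, apart from 1 that did not pass, and the receptors and the other type 2C phosphatases lie on both sides.

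The receptors, which block clade A phosphatases when abscisic acid is bound, moved in both directions. Of 11 receptor genes 10 were tested, and at 8 h 3 rose and 6 fell in Micro-TOM-EX and 2 rose and 6 fell in Micro-TOM. The counts at 2 h were 2 up and 4 down in Micro-TOM-EX and 2 up and 5 down in Micro-TOM, and after rescaling 3 up and 3 down in Micro-TOM-EX and 3 up and 5 down in Micro-TOM. The falls at 2 h, 4 and 5 of 10 genes, were near the shares of all genes, 49.2% in Micro-TOM-EX and 47.5% in Micro-TOM. At 8 h, where 6 of 10 fell in each material, the shares were 35.8% in Micro-TOM-EX and 33.6% in Micro-TOM. LOC101250944, a PYL4 receptor gene, had 24.9 ± 4.54, 8.55 ± 2.198 and 1.46 ± 0.15 FPKM at 0, 2 and 8 h in Micro-TOM-EX and 29.6 ± 5.34, 7.92 ± 1.43 and 1.35 ± 0.165 FPKM in Micro-TOM. LOC101246807, a PYL9-like gene, had 23.2 ± 1.49, 9.003 ± 2.41 and 10.3 ± 1.52 FPKM in Micro-TOM-EX and 19.9 ± 1.78, 7.12 ± 0.794 and 9.90 ± 0.615 FPKM in Micro-TOM. LOC101245998, a PYL4-like gene, averaged 4.49, 1.96 and 0.380 FPKM at 0, 2 and 8 h in Micro-TOM-EX and 5.62, 1.33 and 0.390 FPKM in Micro-TOM. These 3 fell at both hours in both materials (limma adjusted p of at most 0.00336). Between the materials at 2 h, 1 of the 10 tested receptor genes was lower in Micro-TOM-EX and 0 were higher, where 13.7% of all genes passed.

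The SnRK2 kinases, which clade A phosphatases hold inactive, were few and moved in both directions. Of 6 tested genes, 4 rose and 2 fell at 2 h and 4 rose and 1 fell at 8 h, in each material. Of all genes, 26.7% and 27.5% rose at 2 h and 35.5% and 37% at 8 h, in Micro-TOM-EX and in Micro-TOM. After rescaling 1 fell in place of 2 in Micro-TOM-EX at 2 h. LOC101251432, an SRK2I kinase gene, had 6.48 ± 0.660, 11.2 ± 1.79 and 136 ± 6.76 FPKM at 0, 2 and 8 h in Micro-TOM-EX and 6.99 ± 0.978, 17.1 ± 1.60 and 139 ± 9.72 FPKM in Micro-TOM. LOC101250433, an SAPK3 kinase gene, had 53.9 ± 6.87, 179 ± 23.7 and 119 ± 16.7 FPKM in Micro-TOM-EX and 55.9 ± 5.47, 293 ± 49.2 and 107 ± 19.3 FPKM in Micro-TOM. Both kinase genes were lower in Micro-TOM-EX than in Micro-TOM at 2 h, by -0.58 for LOC101251432 (SE 0.123, limma adjusted p = 0.0054) and -0.70 for LOC101250433 (SE 0.161, limma adjusted p = 0.00883). They were the 2 of the 6 tested kinase genes that passed in this comparison, where 13.7% of all genes passed. LOC101248921, an SRK2B kinase gene, had 44.3 ± 3.14, 97.7 ± 13.3 and 91.9 ± 1.82 FPKM in Micro-TOM-EX and 42.6 ± 2.30, 92.3 ± 5.39 and 95.2 ± 4.83 FPKM in Micro-TOM.

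Among bZIP factors, the nuclear targets of the kinases, 4 of 6 genes were tested, and 2 rose and 2 fell at 2 h and 3 rose and 1 fell at 8 h in each material. After rescaling 1 fell in place of 2 in Micro-TOM-EX at 2 h. Of all genes at 2 h, 26.7% rose and 49.2% fell in Micro-TOM-EX and 27.5% rose and 47.5% fell in Micro-TOM. At 8 h the shares were 35.5% up and 35.8% down in Micro-TOM-EX and 37% up and 33.6% down in Micro-TOM. AREB had 28.8 ± 0.540, 266 ± 7.82 and 201 ± 45.4 FPKM at 0, 2 and 8 h in Micro-TOM-EX and 24.5 ± 2.93, 372 ± 32.0 and 188 ± 17.98 FPKM in Micro-TOM. At 2 h it was lower in Micro-TOM-EX than in Micro-TOM by -0.48 (SE 0.135, limma adjusted p = 0.0286). It was the 1 of the 4 tested bZIP genes that passed in this comparison, where 13.7% of all genes passed. LOC101263766, an ABSCISIC ACID-INSENSITIVE 5-like gene, had 11.1 ± 2.12, 96.5 ± 11.7 and 75.5 ± 10.9 FPKM in Micro-TOM-EX and 10.8 ± 3.59, 101 ± 5.52 and 65.4 ± 3.57 FPKM in Micro-TOM. The related LOC101259896 had 15.2 ± 0.354, 6.38 ± 0.771 and 9.56 ± 0.643 FPKM in Micro-TOM-EX and 15.1 ± 0.552, 4.84 ± 1.17 and 10.2 ± 0.365 FPKM in Micro-TOM, and fell at both hours.

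Of 4 tested S-type anion channel genes, 3 rose in Micro-TOM-EX and 2 in Micro-TOM at each later hour, and the others did not pass. After rescaling 3 rose in Micro-TOM at 2 h. The shares of all genes that rose were 26.7% and 27.5% at 2 h and 35.5% and 37% at 8 h, in Micro-TOM-EX and in Micro-TOM. SLAC1 (LOC101256903), the guard cell channel that SnRK2 kinases open, had 3.19 ± 1.29, 3.997 ± 0.405 and 2.74 ± 0.385 FPKM at 0, 2 and 8 h in Micro-TOM-EX and 5.92 ± 2.84, 8.41 ± 1.24 and 5.65 ± 0.342 FPKM in Micro-TOM. It did not pass between hours and is named for its difference between the materials, which was seen first. At 2 h it was lower in Micro-TOM-EX than in Micro-TOM by -0.91 (SE 0.274, limma adjusted p = 0.0378). It was the 1 of the 4 tested channel genes that passed in this comparison, where 13.7% of all genes passed. This gene is also in the guard cell list above. LOC101266554, a SLAH2-like channel gene, had 1.61 ± 1.03, 12.3 ± 3.22 and 7.89 ± 2.65 FPKM in Micro-TOM-EX and 2.99 ± 2.96, 11.98 ± 2.29 and 6.92 ± 1.29 FPKM in Micro-TOM. LOC101261097, a SLAH2 channel gene, had 21.8 ± 9.20, 49.7 ± 12.9 and 75.8 ± 22.4 FPKM in Micro-TOM-EX, where it rose at both hours, and 46.0 ± 16.0, 44.6 ± 6.28 and 58.4 ± 6.19 FPKM in Micro-TOM, where it did not pass.

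Genes that make or break down abscisic acid moved in both directions. Of 13 genes 10 were tested, with 3 up and 5 down in Micro-TOM-EX and 4 up and 4 down in Micro-TOM at each later hour. Of all genes at 2 h, 26.7% rose and 49.2% fell in Micro-TOM-EX, near these counts, and 27.5% rose and 47.5% fell in Micro-TOM. At 8 h the shares were 35.5% up and 35.8% down in Micro-TOM-EX and 37% up and 33.6% down in Micro-TOM. After rescaling, 5 rose and 5 fell in Micro-TOM-EX and 5 rose and 3 fell in Micro-TOM at 2 h. Both genes named abscisic acid 8'-hydroxylase 1, the enzyme that starts the breakdown of the hormone, changed strongly and in opposite directions. LOC101249565 had 147 ± 32.2, 6.20 ± 3.06 and 9.61 ± 3.76 FPKM at 0, 2 and 8 h in Micro-TOM-EX and 488 ± 96.6, 8.72 ± 3.17 and 9.74 ± 1.91 FPKM in Micro-TOM, and at 0 h it was lower in Micro-TOM-EX by -1.73 (SE 0.325, limma adjusted p = 0.00543). LOC101254720 had 1.36 ± 2.33, 20.5 ± 10.5 and 135 ± 60.8 FPKM in Micro-TOM-EX and 0.230 ± 0.135, 19.8 ± 4.94 and 107 ± 15.9 FPKM in Micro-TOM. LOC100316877, named as the 9-cis-epoxycarotenoid dioxygenase NCED5, of the committed step of synthesis, had 8.93 ± 1.23, 11.4 ± 0.918 and 0.620 ± 0.0458 FPKM in Micro-TOM-EX and 4.87 ± 0.706, 12.1 ± 1.53 and 0.293 ± 0.0764 FPKM in Micro-TOM. Of the 10 tested genes, 2 were higher and 1 was lower in Micro-TOM-EX than in Micro-TOM at 0 h, where 4.01% of all genes passed. At 2 h, 0 of the 10 differed between the materials, where 13.7% of all genes passed.

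The genes most like each of the 6 were sought among 10284 genes with a mean of at least 5 FPKM, by Pearson's r of log2(FPKM + 1) over the 18 libraries, as a description. The points share their hours, so r rests mainly on the 3 hours. LOC101268860, a ninja-family AFP3 gene, followed LOC101258071 with r = 0.997, at 3.51 ± 1.43, 119 ± 4.997 and 46.4 ± 14.7 FPKM at 0, 2 and 8 h in Micro-TOM-EX and 2.45 ± 0.202, 129.96 ± 13.03 and 45.2 ± 4.86 FPKM in Micro-TOM. The next was LOC101264838, an ERF054 transcription factor gene, with r = 0.995, at 3.52 ± 1.08, 403 ± 29.5 and 162 ± 41.0 FPKM in Micro-TOM-EX and 2.68 ± 2.2002, 570 ± 89.7 and 144 ± 31.8 FPKM in Micro-TOM. Both shared the peak at 2 h. For LOC101261835 the nearest were LOC101245840, a probable nucleoredoxin 2 gene (r = 0.995), and SD1, a cytochrome P450 710A11 gene (r = 0.994), and both were far above their level at 0 h at each later hour. For LOC101265524 they were GGP, of GDP-L-galactose phosphorylase in vitamin C synthesis, and LOC101249445, of a chloroplast glyceraldehyde-3-phosphate dehydrogenase of photosynthetic carbon fixation, both with r = 0.996. GGP had 3831 ± 718, 1010 ± 121 and 179 ± 30.7 FPKM in Micro-TOM-EX and 3158 ± 76.7, 1045 ± 188 and 245 ± 71.8 FPKM in Micro-TOM. The remaining 3 genes were followed less closely. LOC101260150 was nearest to LOC101250716, a translation initiation factor 2A gene (r = 0.977), and LOC101268207, a CBL-interacting protein kinase 5-like gene (r = 0.970). LOC101253040 was nearest to LOC101260861, a RABA5b-like gene (r = 0.948), and LOC101252038, of a U11/U12 small nuclear ribonucleoprotein (r = 0.928). LOC101258862 was nearest to LOC101248653, a 21 kDa protein-like gene (r = 0.930), and LOC101255935, of a methyl-CpG-binding domain protein 4-like protein (r = 0.925). Among the 6 genes themselves, LOC101258071 and LOC101261835 had r = 0.939, and the 4 genes lower at 2 and 8 h had r from 0.620 to 0.844 with each other.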

How the data were processed

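From Trizol extracts of leaf, 18 libraries were made by BGI500 protocols, per the labels' protocols. The tools named in the submitters' processing notes are RSEM 1.2.12, HISAT2 2.0.4, DESeq2 1.4.5 and Bowtie2 2.2.5. The role of each and the genome build are not stated in these notes. The authors deposited FPKM values of 23808 genes, rounded to 2 decimals, and, for pairs of groups, their own q-value, p-value and log2 fold change. The 18 FPKM columns that appeared again were identical and were not used. A RefSeq gene table of another assembly (SLM_r2.1) held 21978 of the gene IDs and gave symbols only.

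Depth was recovered by a search from 12 to 30 M fragments for which 92.8 to 95.1% of 1062 to 1349 low genes per library came out whole within 0.15 of a fragment. RSEM divides reads between genes, so no count test was run, and near-identical genes could share reads. For log2(FPKM + 1), limma 3.58.1 (R 4.3.3) was fitted to the 18402 genes that reached 1 FPKM in 3 or more libraries, in 1 model over 6 groups with a mean trend, and p-values were adjusted by Benjamini and Hochberg within each comparison at 0.05. Tested on simulated data of 17593 genes, the comparison of the materials at 2 h recovered 85% of 2-fold and 98% of 4-fold changes with 5 false calls, and that of the changes to 2 h 65% and 91% with 7. Same-numbered libraries of the materials correlated at 0 h for replicates 1 and 2 (0.475 and 0.439). Replicate 3 of Micro-TOM-EX correlated less with replicate 3 of Micro-TOM (0.127) than with replicate 1 (0.221). There was no such pairing at 2 h or 8 h, where at least 2 of the 3 same-number correlations were under 0.1.

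The 6 genes, the lists and the rule for names were chosen with earlier results of these data known. Named were the 6 genes, the 2 genes most like each, and up to 3 of each list with the smallest adjusted p between hours and 5 FPKM in a group. Differences between the materials are given for the 6 genes and for some of the other named genes, not for every one. The K14497 list was added after the table was read. Lists were drawn from the deposited names. The alternatives were rescaling by median ratios, other filters, a pseudocount of 0.1, a fit of the compared groups alone, replicate blocks, libraries left out and the authors' q values. No sequences are shown, since none was used here.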

Additional observations from a re-analysis of the deposited data

How the results depend on the processing

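The differences between the materials at 2 h sit at the threshold, so the count of the 6 genes that passed depended on the setting. In place of 0, it was 1 after rescaling by median ratios and with a pseudocount of 0.1, and 2 in a fit of the compared groups only and with the authors' deposited q values, which were added after seeing the data. For the change to 2 h it was 1 in the fit of the compared groups only. LOC101258862 at 2 h had a log2 difference of 0.76 (adjusted p = 0.0455) after rescaling and 0.79 (adjusted p = 0.0453) with the pseudocount of 0.1. In the fit of the compared groups only, the adjusted p was 0.0376 for LOC101258862 and 0.016 for LOC101258071 at 2 h, and 0.0396 for LOC101258071 in the change to 2 h. Leaving out 1 library gave 0 to 1 of the 6 genes in each of these comparisons.

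With the replicate number as a block over all groups, 1 of the 6 genes passed at 2 h (LOC101258071, adjusted p = 0.0354) and 1 in the change to 2 h (LOC101258071, adjusted p = 0.0297). With a replicate block within each hour 2 passed at 2 h (LOC101258071, adjusted p = 0.0406, and LOC101258862, adjusted p = 0.0216). The numbers did not pair the libraries at 2 h, and at 0 h, where they did, the block changed no call of the 6 genes (808 genes passed in all, against 738).

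Counts over all genes moved more. The fit of the compared groups only called 180 genes at 0 h, 171 at 8 h (against 307) and 112 in the change to 8 h (against 249). The authors' q values called 622 at 8 h, and the pseudocount of 0.1 called 165 in the change to 8 h. With 1 library left out, 394 to 750 genes passed at 0 h, 1190 to 3030 at 2 h (against 2522), 174 to 316 at 8 h, 668 to 1443 in the change to 2 h (against 1194) and 115 to 363 in the change to 8 h. The lowest counts came without replicate 3 of Micro-TOM-EX at 0 h, replicate 1 of Micro-TOM at 2 h and replicate 2 of Micro-TOM at 8 h for the 3 levels, and without replicate 1 of Micro-TOM at 2 h and replicate 1 of Micro-TOM-EX at 8 h for the 2 changes. Other libraries that moved a count by over 1.5 times were replicate 3 of Micro-TOM at 0 h (488 without it), replicate 3 of Micro-TOM-EX at 2 h (1335, and 671 for the change) and replicate 1 of Micro-TOM-EX at 8 h (198). For the change to 8 h they were replicates 2 and 3 of Micro-TOM-EX (161 and 124) and replicate 3 of Micro-TOM (149) at 0 h, and replicate 2 of Micro-TOM-EX (152) and replicates 1 and 2 of Micro-TOM (147 and 123) at 8 h. After rescaling, higher calls made up 52.4% in the change to 2 h, against 42.3% without it, and 72.3% in the change to 8 h, against 60.2%. Between 2 h and 0 h it gave 6716 higher and 6813 lower genes in Micro-TOM-EX, against 4919 and 9049, and 6511 higher and 6788 lower in Micro-TOM, against 5055 and 8734.

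The sign of each difference of the 6 genes from 0 h held in all alternatives run. Single genes of the lists were not refitted under the alternatives. The cause of each change in calls was not tested. Depth limits LOC101258071 at 0 h and LOC101260150 at 2 and 8 h most. With a pseudocount of 0.1 the difference of LOC101258071 between 2 h and 0 h was 7.93 in Micro-TOM-EX and 9.60 in Micro-TOM, and that of LOC101260150 was -1.95 and -2.04. The search for motifs in other promoter windows was not run.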

Other observations

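Type 2C phosphatases outside the 6 genes differed between the materials about as often as all genes did. Of those named here, LOC101252501 and LOC101260276 were picked for that difference after their values were seen. Of the 71 tested phosphatase genes, 7 were higher and 6 lower in Micro-TOM-EX than in Micro-TOM at 2 h, and 3 were lower at 0 h (limma, adjusted p under 0.05). These are 18.3% of the phosphatases at 2 h and 4.23% at 0 h, near the 13.7% and 4.01% of all genes. LOC101252501, named probable protein phosphatase 2C 27, had 50.5 ± 12.5 FPKM in Micro-TOM-EX and 23.3 ± 1.29 FPKM in Micro-TOM at 2 h (SD, n = 3 each, limma adjusted p = 0.000487). LOC101260276, named probable protein phosphatase 2C 6, had 0.827 ± 0.299 FPKM in Micro-TOM-EX and 3.91 ± 0.344 FPKM in Micro-TOM at 2 h (limma adjusted p = 0.000246), and its fall from 0 h was larger in Micro-TOM-EX by a log2 difference of -1.73 (SE 0.288, limma adjusted p = 0.00202). LOC101253664, named probable protein phosphatase 2C 75 and carrying K14497, was nearly absent at 0 h, with 0.0233 ± 0.0404 FPKM in Micro-TOM-EX and 0.0533 ± 0.0473 FPKM in Micro-TOM, and had 76.2 ± 46.6 FPKM in Micro-TOM-EX and 110 ± 19.2 FPKM in Micro-TOM at 2 h. Its difference between the materials at 2 h did not pass (limma adjusted p = 0.161).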
